A study of Mus musculus with 3 samples.

Results

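The genes described here are 10 innate sensors and adaptors of epithelial cells: the Toll-like receptor genes Tlr2, Tlr3, Tlr4 and Tlr5, the cytosolic sensor genes Nod1 and Nod2, the adaptor and kinase genes Myd88 and Ripk2, and the genes Tifa and Alpk1 of the TIFA pathway. They are named genes of these pathways, listed with earlier results of these data known, and all 10 were found by symbol among the 35824 Ensembl genes of the count table. Their RNA was measured in 3 RNA-seq libraries of intestinal epithelial cells (IEC) from mouse small intestinal organoids (SIO), which are crypt-derived epithelial structures grown in Matrigel. All 3 libraries belong to 1 group, IEC + ILC3: the SIO were co-cultured for 4 days with type-3 innate lymphoid cells (ILC3), which respond to microbial and tissue signals with IL-22, and IEC were then sorted as EpCAM-positive, CD45-negative cells. The organoids came from female CD45.1 C57BL/6 mice that the sample labels place at 6 to 8 weeks of age, and the ILC3 from the small intestinal lamina propria of C57Bl/6J reporter mice. The medium held the cytokines IL-2, IL-7 and IL-15 in every culture. By the sample labels, A and B entered the study's final analysis and C did not, for a reason that the sources used here do not give. Where 3 values are listed they stand in the order A, B, C. IEC cultured without ILC3 were not analysed here, so the values describe levels within the co-culture and not a response to ILC3. No microbial ligand is named among the additions to these cultures, and the labels do not say whether the 3 cultures came from different mice.

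Toll-like receptors bind microbial lipids, proteins or nucleic acids at the cell surface or in endosomes, and most pass the signal on through MyD88. NOD1 and NOD2 sense fragments of bacterial peptidoglycan in the cytosol and signal through the kinase RIPK2. ALPK1 is a cytosolic kinase that binds ADP-heptose, a sugar from the synthesis of lipopolysaccharide in Gram-negative bacteria, and phosphorylates the adaptor TIFA, which then assembles with TRAF6, and all 3 routes reach the IKK complex and NF-kB.

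Alpk1 and Tifa are neighbours. On chromosome 3 of GRCm38 (GENCODE M21 annotation), Alpk1 (ENSMUSG00000028028) lies at chr3:127670310-127780527 on the minus strand and Tifa (ENSMUSG00000046688) at chr3:127789805-127832164 on the plus strand, so the genes point away from each other with 9278 bases between their starts. Tlr2 (ENSMUSG00000027995) lies on the same chromosome at chr3:83836272-83841767 on the minus strand. Alpk1 and Tlr2 had by far their lowest counts in library C and Tifa did not, and the sequence upstream of each of these starts is therefore shown. Each sequence is the RefSeq promoter window (GRCm38.p6, 5′ to 3′ on the strand of its gene) without the bases that an annotated exon covers, and capitals mark matches to the kappa B consensus, the 10-base motif bound by NF-kB.
Tlr2 (chr3:83841768-83841858, minus strand, 91 bases): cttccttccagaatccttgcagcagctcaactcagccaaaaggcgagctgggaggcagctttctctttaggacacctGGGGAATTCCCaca
Alpk1 (chr3:127780528-127780777, minus strand, 250 bases): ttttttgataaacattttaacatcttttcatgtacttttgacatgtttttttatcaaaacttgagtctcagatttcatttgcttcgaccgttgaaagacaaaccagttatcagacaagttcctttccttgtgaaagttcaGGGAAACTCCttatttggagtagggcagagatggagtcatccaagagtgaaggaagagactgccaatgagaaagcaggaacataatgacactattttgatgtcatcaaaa
Tifa (chr3:127789622-127789804, plus strand, 183 bases): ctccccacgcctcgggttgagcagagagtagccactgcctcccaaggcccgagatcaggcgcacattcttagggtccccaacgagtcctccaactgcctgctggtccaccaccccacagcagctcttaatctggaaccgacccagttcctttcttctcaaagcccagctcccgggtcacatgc

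The Tlr2 stretch holds an overlapping pair of matches that begin 173 and 172 bases before the RefSeq start site, and the full Tlr2 window holds a further match that begins 8 bases before it. That RefSeq site (chr3:83841608) differs from the GENCODE start of Tlr2 given above (chr3:83841767) and lies inside the annotated gene, as does the further match. The Alpk1 match begins 110 bases before the start site, and these letters are not in the Tifa stretch shown. In the full windows of 250 bases before and 50 after a start site, searched on both strands with overlaps allowed, 1480 of 32851 promoters of the RefSeq table (4.51%) held a match. Of the 10 members, 8 had an entry, with 10 windows in all, and 4 of these windows held a match: those of Tlr2, Alpk1, Tlr3 and a second Tifa start, whose match begins 33 bases after that start. Tlr4 and Ripk2 had no entry. Nod2, also lowest in C, had no match in its window, and Tlr3, not lowest in C, had 1. A match describes letters in a window and does not show that a factor binds there. A link between matches and the levels in C was not tested.

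The libraries held 17946361 (A), 23142849 (B) and 28913885 (C) estimated counts, and 3 counts, the level used as the floor for a gene at 0, came to 0.164, 0.131 and 0.105 CPM. CPM are counts relative to library depth, scaled with edgeR's TMM factors and, wherever genes are compared with each other, divided by the exon length of the gene in kilobases. Library C stood apart: the median absolute log2 difference between libraries was 0.35 for A and B, 0.50 for A and C and 0.57 for B and C. The sort was reflected in the counts, since the summed level of 9 epithelial markers was 11058 to 13117 CPM and that of 14 lymphocyte and ILC3 markers was 0.489 to 4.79 CPM, with 8 of them at 0 in every library and 1 count of the CD45 gene Ptprc over the 3 libraries. The 11 myeloid markers summed to 1.31 to 4.23 CPM, with Adgre1 and Tyrobp at 0 in every library, the 5 B cell markers to 4.32 to 4.97 CPM and the 7 stromal markers to 0.245 to 1.04 CPM. Of the 5 B cell markers, 1 had at least 10 counts in every library and 2 were tested. In that test 1 was lower in C and 1 was not called, so their even sum does not mean that each marker was even. Of 7 goblet cell markers, 4 (Muc2, Fcgbp, Clca1 and Zg16) were lower in C and 3 were not called. In the same test, described below, 707 of 13604 genes (5.2%) were lower in C. The summed goblet level was 2287, 2872 and 1553 CPM. Paneth cell markers summed to 14501 to 22464 CPM, stem cell markers to 6940 to 8895 CPM and enterocyte markers to 3678 to 5276 CPM, with no gene of these 3 lists past the test. SMART-Seq2 reads carry no molecular identifiers, so intervals and floors given here cover counting error only.

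The members covered a wide range of levels. Per kilobase of exon, averaged over A, B and C, Tifa at 26.05 ± 5.001 and Myd88 at 23.0 ± 3.55 CPM per kilobase (SD, n = 3) stood well above all other members. Next came Nod1 (2.21 ± 1.25), Tlr2 (1.89 ± 1.70), Ripk2 (1.77 ± 0.664), Alpk1 (1.71 ± 1.64), Tlr3 (1.04 ± 0.231) and Tlr4 (0.583 ± 0.208 CPM per kilobase), then Nod2 at 0.122 ± 0.117 CPM per kilobase, and Tlr5 at 0. Myd88 was above Nod1 in 3 of 3 libraries with no overlap of their ranges, as was Tlr4 above Nod2. Nod2 was above Tlr5 in A and B, while its 3 counts in C equal the floor used for a count of 0. Tifa and Myd88 overlapped, as did each successive pair from Nod1 down to Tlr4, although Tlr3 was above Tlr4 in 3 of 3 libraries. The order of Nod1, Tlr2, Ripk2 and Alpk1 was not resolved: without C, Nod1 came after Tlr2, Alpk1 and Ripk2, so its place ahead of them rests on that library. Means of the most variable members also moved when 1 library was left out. The mean level of Alpk1 was 11.8 CPM over the 3 libraries, 5.91 CPM without B and 17.1 CPM without C. That of Tlr2 was 5.71 CPM, 3.51 CPM without B and 8.53 CPM without C. That of Nod2 was 0.614 CPM, 0.292 CPM without A and 0.868 CPM without C. Ranked by CPM per kilobase among genes with at least 10 counts, Tifa stood above 78.4% to 84.9% of genes and Myd88 above 78.4% to 80.8%, whereas Tlr4 stood above 9.32% to 14.9%.

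**Figure D1:**
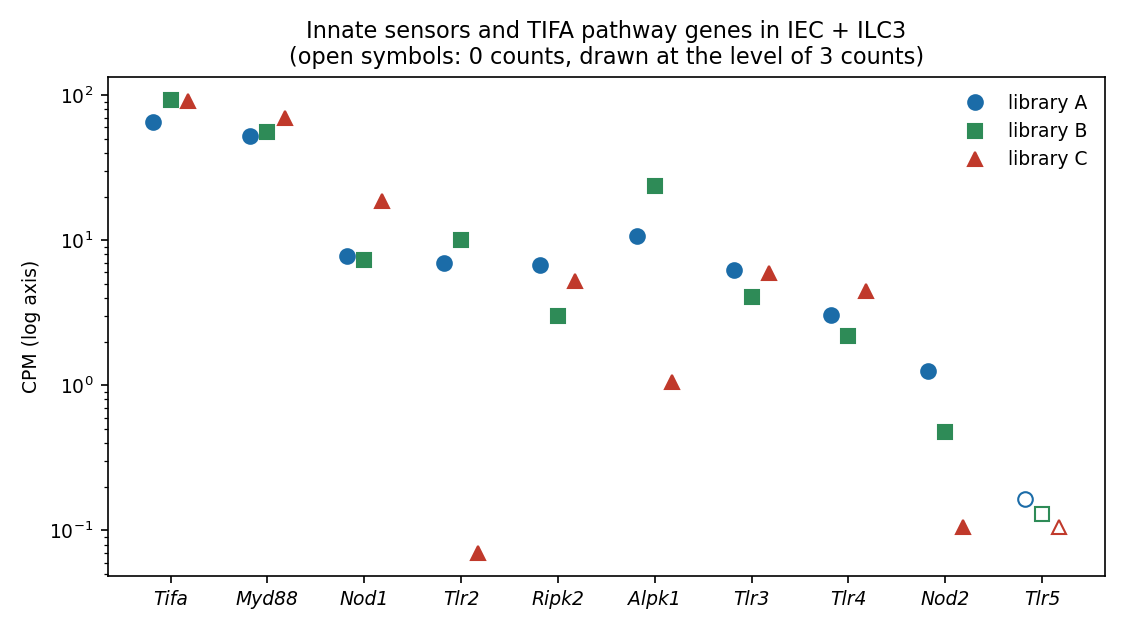
Level of each member in each library, in CPM on a log axis; circles are library A, squares B and triangles C, and open symbols stand for 0 counts drawn at the level of 3 counts. Genes are ordered by mean CPM per kilobase, so neighbours need not fall in order here. Tifa and Myd88 lie between 52.4 and 93.3 CPM in all libraries, while the C points of Tlr2 and Alpk1 fall to 0.0699 and 1.05 CPM.

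Among the Toll-like receptors, Tlr2 showed the widest spread. TLR2 recognises bacterial lipoproteins as a partner of TLR1 or TLR6. Tlr2 had 127, 232 and 2 counts, which is 6.94, 10.1 and 0.0699 CPM. It was present at 100 counts or more in both libraries that the study used and nearly absent from the deepest library, and the pooled level of A and B was 124.5 times that of C (exact conditional binomial 95% interval 34.2 to 1032). Its partner Tlr1 had 58, 125 and 18 counts, or 3.17, 5.45 and 0.629 CPM. Tlr1 was also at its lowest in C, and the ratio of Tlr2 to Tlr1 per kilobase was 2.43 (95% interval 1.77 to 3.38), 2.06 (1.65 to 2.58) and 0.123 (0.0139 to 0.515), so the C interval did not overlap the others. The other partner, Tlr6, was at 0 in every library.

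TLR3 binds double-stranded RNA in endosomes and signals through TRIF, the product of Ticam1, and not through MyD88. Tlr3 had 115, 93 and 170 counts, or 6.29, 4.05 and 5.94 CPM, and its level in C lay between those of A and B. Ticam1 was at 38.6, 29.4 and 16.1 CPM. Tlr3 (chr8:45395665-45411080, minus strand) shares 381 of its exon bases (7.32%) with Gm45542 on the other strand, and reads of the unstranded protocol from these bases cannot be assigned to a strand.

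TLR4 is the lipopolysaccharide receptor and works with MD-2, the product of Ly96, and with CD14. Tlr4 (chr4:66827584-66930284, plus strand) had 56, 50 and 128 counts, or 3.06 CPM (exact Poisson 95% interval 2.31 to 3.97), 2.18 CPM (1.62 to 2.87) and 4.47 CPM (3.73 to 5.32). Per kilobase, Tlr4 was the lowest of Tlr2, Tlr3 and Tlr4 in A and in B, and in C it stood above Tlr2. Its cofactors were more abundant: per kilobase, Cd14 exceeded Tlr4 by 17.8, 34.1 and 31.6 times, and Ly96 exceeded it by 10.0, 13.2 and 12.8 times. The ratio of Ly96 to Tlr4 agreed between libraries within counting error, since the intervals (7.16 to 14.1, 9.40 to 18.7 and 10.4 to 15.9) overlapped.

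The ratio of Tlr4 to Tlr2 per kilobase was 0.239 (0.171 to 0.330) and 0.117 (0.0843 to 0.159) in the libraries used by the study but 34.7 (9.42 to 289.8) in C. Tlr2 was therefore the more abundant of these surface receptors in A and B, and Tlr4 in C. The ratio of Tlr4 to Tlr3 stayed near 0.456 (0.326 to 0.633), 0.504 (0.350 to 0.718) and 0.706 (0.557 to 0.893), with overlapping intervals. Tlr5, the receptor of bacterial flagellin (chr1:182954788-182976044, plus strand), had 0 counts in all 3 libraries, where the floor of 3 counts is 0.164, 0.131 and 0.105 CPM. The upper ends of its exact Poisson 95% intervals were 0.202, 0.161 and 0.129 CPM. Of the 8 remaining mouse Toll-like receptor genes, Tlr1 alone was detected, and Tlr6, Tlr7, Tlr8, Tlr9, Tlr11, Tlr12 and Tlr13 were at 0 in each library.

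Nod1 and Nod2 differed strongly in level. NOD1 recognises peptidoglycan with meso-diaminopimelic acid, typical of Gram-negative bacteria, and NOD2 recognises muramyl dipeptide, which is present in most bacteria. Nod1 (chr6:54923949-54972612, minus strand) had 143, 168 and 531 counts, or 7.82, 7.32 and 18.6 CPM. It was nearly equal in A and B and higher in C, where the Poisson interval (17.0 to 20.2 CPM) lay above those of A (6.59 to 9.21) and B (6.26 to 8.52). Nod2 (chr8:88647315-88688474, plus strand) had 23, 11 and 3 counts, or 1.26, 0.479 and 0.105 CPM, with the last value equal to the floor. Per kilobase, Nod1 exceeded Nod2 by 6.14 (3.93 to 9.99), 15.1 (8.21 to 30.8) and 175 times (59.5 to 850.0). Nod1 was the major NOD receptor transcript in each library, and the C interval did not overlap the other 2.

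Ripk2, the kinase shared by NOD1 and NOD2, had 123, 69 and 150 counts, or 6.72, 3.01 and 5.24 CPM. Ripk2 (chr4:16122733-16163647, minus strand) was lowest in B, at 0.447 times its level in A (exact conditional binomial 95% interval 0.328 to 0.606), with C between them. The ratio of Nod1 to Ripk2 per kilobase was 0.645 (0.503 to 0.827), 1.35 (1.01 to 1.81) and 1.96 (1.63 to 2.37), so the sensor was below its kinase in A and above it in C.

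Myd88, the adaptor of most Toll-like receptors and of the IL-1 receptor family, varied least among the members, with a coefficient of variation of 15.4% over the 3 libraries. It had 959, 1279 and 1992 counts, or 52.4, 55.7 and 69.6 CPM (59.3 ± 9.14 CPM, SD, n = 3). The 3 values lay close together, C highest, and Myd88 exceeded Tlr4 per kilobase by 36.9, 55.2 and 33.6 times. Against Ticam1, the adaptor of the TRIF route, Myd88 was higher per kilobase by 1.58, 2.20 and 5.02 times, with intervals that did not overlap (1.43 to 1.74, 2.01 to 2.42 and 4.53 to 5.57). Myd88 (chr9:119335934-119341411, minus strand) shares 290 exon bases, 11.3% of its length, with Acaa1a on the opposite strand, which had 4020 to 4573 counts, and without strand information the reads from these bases cannot be told apart.

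In the TIFA pathway the adaptor and its kinase did not keep 1 ratio over the libraries. Tifa had 1187, 2141 and 2626 counts, or 64.9, 93.3 and 91.8 CPM, so B and C were alike and A was lower. Alpk1 had 197, 539 and 30 counts, or 10.8, 23.5 and 1.05 CPM, the last with an exact Poisson 95% interval of 0.708 to 1.497. The 3 Alpk1 values did not resemble each other: B was 2.18 times A (1.85 to 2.58), and the pooled level of A and B was 17.0 times C (exact conditional binomial 95% interval 11.8 to 25.4). Tifa exceeded Alpk1 per kilobase by 12.9 (11.1 to 15.1), 8.53 (7.76 to 9.39) and 188 times (131 to 279). The adaptor was thus the more abundant transcript of the pathway in each library, most of all in C. Against Myd88, Tifa per kilobase stood at 0.997 (0.915 to 1.09), 1.35 (1.26 to 1.45) and 1.06 times (1.001 to 1.126). Tifa shares 105 exon bases (3.28%) with Gm43654 on the other strand.

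Of the partners of TIFA, TRAF6 is the ubiquitin ligase that it recruits. Traf6 had 652, 959 and 70 counts, or 35.6, 41.8 and 2.45 CPM, and was low in C as Alpk1 was. The ratio of Tifa to Traf6 per kilobase was 4.49 (4.07 to 4.94), 5.50 (5.10 to 5.94) and 92.4 (72.9 to 119). Traf2, another ubiquitin ligase that binds TIFA, had 31.3, 34.3 and 65.3 CPM and was highest in C. Tifab, the related inhibitor of TIFA, and Alpk3 were at 0 in every library, while Alpk2, an alpha kinase related to ALPK1, had 43, 57 and 26 counts.

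**Figure D2:**
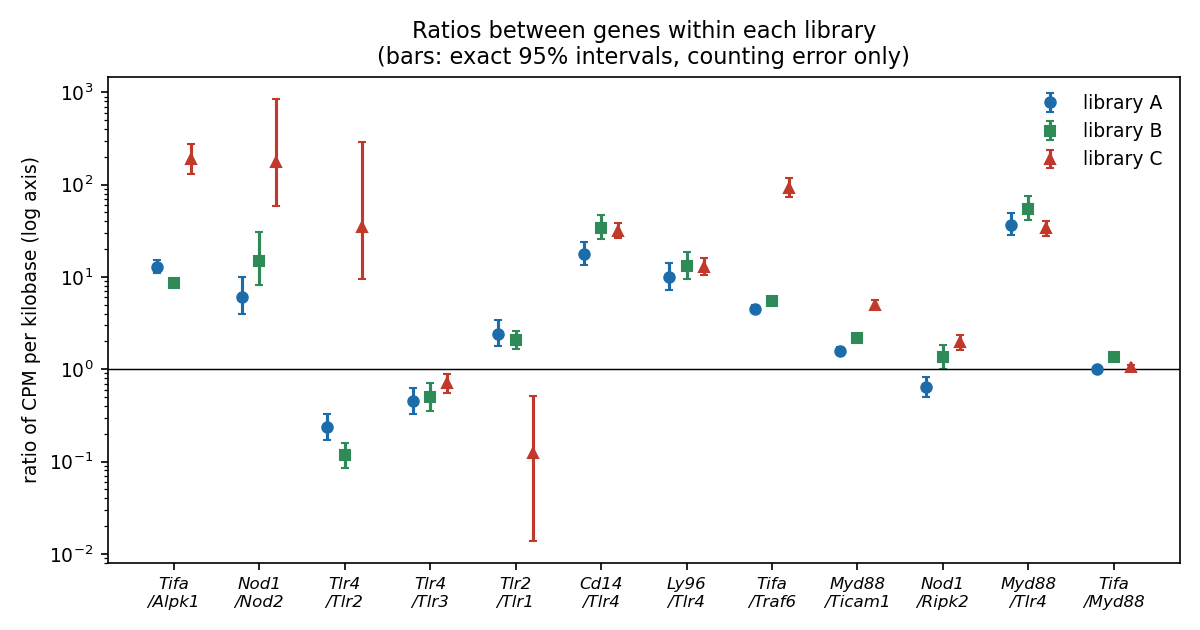
Ratios of CPM per kilobase between named genes within each library, on a log axis, with exact 95% intervals that cover counting error only; the horizontal line marks equal levels. The ratios of Tifa to Alpk1, Tifa to Traf6 and Tlr4 to Tlr2 lie at 188, 92.4 and 34.7 in library C, apart from A and B, whereas Ly96 to Tlr4 lies between 10.0 and 13.2 in all 3.

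The only labelled difference among the libraries is their use in the final analysis, and library C was therefore compared with A and B. The test was edgeR's quasi-likelihood test with Benjamini-Hochberg adjustment over all 13604 genes tested and a threshold of 0.1. It has 1 residual degree of freedom per gene and assumes that C varies like A and B. Library C adds no spread of its own, so the p-values rest on the spread between A and B, moderated over all genes, which may be technical, and the contrast is between libraries and not between conditions. Over all genes, 892 of 13604 (6.56%) passed, 707 (5.2%) lower in C and 185 (1.36%) higher. Of the 10 members 9 were tested, 2 were lower in C (Tlr2 and Alpk1), 0 were higher and 7 did not pass. At an unadjusted p under 0.05, 3 members passed, the third being Nod1. The share of all genes at that threshold was not counted, so this number stands without a comparison. Tlr5 was not tested, and Tlr2 and Nod2 reached the test only through their counts in A and B, so the share of members called is not set against the 5.2% of all genes. The median log2 fold change was 0.20 over the 9 members tested and -0.10 over all genes tested, with 6 members above 0 and 3 below.

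Tlr2 fell by 6.83 on the log2 scale in C (standard error 1.133, adjusted p = 0.0315, edgeR's quasi-likelihood test), and this fitted value rests on 2 counts in C and on a filter that Tlr2 passed through A and B. Over 7 alternative fits its adjusted p ranged from 2.44e-06 to 0.0449. It was called with no filter on low counts, and with at least 10 counts required in every library it no longer entered the test, so the counts themselves are the firmer description. Alpk1 fell by 4.02 (standard error 0.76, adjusted p = 0.0440), with adjusted p from 3.16e-06 to 0.0591 over 8 alternatives, all of which called it. In bulk RNA, fewer cells of a type that carries a transcript and less of it per cell cannot be told apart. Of the 7 goblet cell markers, 4 were lower in the same library, against 5.2% of all genes tested. The other 3 goblet cell markers were not called, 1 of them with a log2 fold change above 0. The part of these 7 markers in the Tlr2 and Alpk1 results was not tested.

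Nod1 had a log2 fold change of 1.29 (standard error 0.49, unadjusted p = 0.0294, adjusted p = 0.177) and did not pass. Nod2 was at -2.99 with a standard error of 2.26 (adjusted p = 0.449), and its pooled level in A and B was 7.86 times that in C, with a counting interval of 2.47 to 40.0. Tlr4 was at 0.77 (standard error 0.93), Myd88 at 0.36 (0.29), Tifa at 0.21 (0.32), Tlr3 at 0.20 (0.74) and Ripk2 at 0.10 (0.83), with adjusted p between 0.482 and 0.957. A value short of the threshold with a standard error of this size leaves room for a difference, and none of these 7 is shown to be equal between the libraries.

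**Figure D3:**
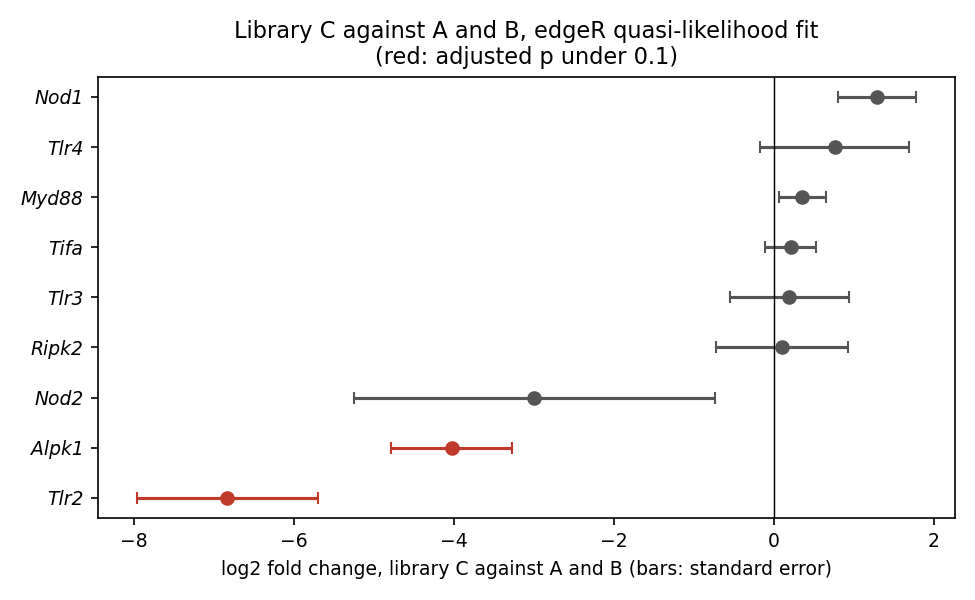
Log2 fold change of library C against A and B for the 9 members tested, with bars of 1 standard error from edgeR's quasi-likelihood fit; red marks an adjusted p under 0.1. Tlr2 at -6.83 and Alpk1 at -4.02 are marked, Nod2 at -2.99 has the widest bar, and the other 6 lie between 0.10 and 1.29.

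Libraries A and B, which the study used, also differed in members. With 1 library on each side there is no test, and ratios carry counting intervals only. B was past 1.5-fold of A, in either direction, for 4 of 9 members with at least 10 counts in both libraries, against 3503 of 11989 genes (29.2%). Alpk1 was higher in B by 2.18 times (1.85 to 2.58), while B was at 0.447 times A for Ripk2, 0.645 for Tlr3 (0.485 to 0.855) and 0.381 for Nod2 (0.168 to 0.814). Short of 1.5-fold, Tlr2 was at 1.46 (1.17 to 1.82) and Tifa at 1.44 (1.34 to 1.55), and the intervals of Myd88 (1.06, 0.977 to 1.16), Nod1 (0.937, 0.745 to 1.18) and Tlr4 (0.712, 0.476 to 1.06) included 1. With at least 100 counts in both libraries, 1 of 5 members (Alpk1) remained past 1.5-fold, against 2074 of 9617 genes (21.6%), a similar share. The 3 members that were lower in B had under 100 counts in at least 1 of the libraries.

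The pathway around the members was read from 11 gene lists. Beside the counts of calls in each list stand the shares over all genes tested, 5.2% lower in C and 1.36% higher. In the list of 11 Toll-like receptor accessory proteins, 6 had at least 10 counts in every library and 0 of 8 tested passed, with a list median of 0.36 on the log2 scale. The chaperone Hsp90b1, which folds Toll-like receptors, led at 596, 547 and 702 CPM, followed per kilobase by Lrrc59 and Cd14. Cd14 had 311, 532 and 1260 counts (17.0, 23.2 and 44.0 CPM) and did not pass the test (log2 fold change 1.128, standard error 0.36, adjusted p = 0.130). Ly96 was at 5.63, 5.27 and 10.6 CPM, so both TLR4 cofactors and Tlr4 itself had their highest value in C, and none of the 3 passed.

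Among 16 adaptors and kinases after Toll-like receptors, 15 were tested, 2 were lower in C, 1 was higher, and the list median was -0.16. Traf6 fell by 3.99 (standard error 0.46, adjusted p = 0.0146) and Tab3, a ubiquitin-binding subunit of the TAK1 kinase complex, fell by 4.90 (standard error 0.94, adjusted p = 0.0440) from 126 and 326 counts to 10. Tab2, the paralog of Tab3, was higher in C by 1.38 (standard error 0.37, adjusted p = 0.0966), with 253, 335 and 1060 counts, so these alternative subunits moved in opposite directions. The most abundant genes per kilobase were Ube2v1 and Ube2n, which together form the conjugating enzyme that TRAF6 uses to build ubiquitin chains, and Irak2. The kinases at the receptor were measured at moderate levels: Irak4 at 52.6, 44.9 and 26.8 CPM, Irak1 at 12.8, 17.6 and 21.2 CPM, and the bridging adaptor Tirap at 17.7, 21.8 and 27.0 CPM.

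Of 16 partners of NOD1 and NOD2, 14 were tested, 1 was higher in C and 0 lower, with a median of -0.58. Slc46a3, a lysosomal transporter, had 41, 42 and 365 counts and was higher by 2.64 (standard error 0.69, adjusted p = 0.0911). Slc15a1, the peptide transporter PEPT1 of enterocytes, which can carry muramyl dipeptide, had only 38, 37 and 13 counts. Rbck1 and Sharpin, subunits of the linear ubiquitin ligase, and Nagk, the kinase that phosphorylates muramyl dipeptide, were the highest of the list per kilobase, with Nagk at 43.8, 54.7 and 58.8 CPM. Xiap, the ubiquitin ligase that acts on RIPK2, was at 36.5, 33.5 and 20.1 CPM.

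Within the 7 TIFA partners, 5 were tested, with Traf6 lower, Tab2 higher and a median of -0.16; both genes also belong to the adaptor list. Traf2 had a log2 fold change of 0.99 (standard error 0.30, adjusted p = 0.116). The kinase Map3k7 (TAK1) had 185, 367 and 336 counts.

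Per kilobase, the adaptor gene Pycard and the sensor gene Nlrp6 were more abundant than any member. Of 18 inflammasome sensors and other NOD-like receptors, 11 had at least 10 counts in every library, and 2 of 12 tested were lower in C, with a median of -0.46. Pycard, the adaptor ASC, led with a mean of 123 CPM per kilobase, then Nlrp6 at 50.4, against 26.05 for Tifa. Naip1, the next of the list, was below Tifa at 18.6 CPM per kilobase. By library, Pycard was at 427, 439 and 533 CPM, Nlrp6 at 301, 244 and 222 CPM, and Naip1 at 127, 101 and 81.2 CPM. Naip6, a sensor of flagellin that acts with NLRC4, was called lower in C, by 2.09 on the log2 scale (standard error 0.34). Its counts went from 1387 and 2199 to 579. The Naip genes are related, and reads of similar genes were shared out by Salmon, so the split of reads between them may be uncertain. Nlrp1b had 130 and 82 counts and then 0 in C, at least 50.9-fold lower against a floor of 3 counts in C (adjusted p = 0.0440); it entered the test through A and B and leaves it where 10 counts are required in every library. Flagellin can be sensed by TLR5 or by NAIP5 and NAIP6, and here Tlr5 was at 0 in libraries where Naip6 was at 75.8, 95.8 and 20.2 CPM. Naip5 was at 24.7, 21.7 and 27.5 CPM, so it was not low in C as Naip6 was. Of 10 RNA and DNA sensors, 9 were tested and 0 passed, with a median of -0.11, and Ddx41, Mavs and Tmem173 (STING) were the highest per kilobase.

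Of 11 IKK and NF-kB subunits, all 11 had at least 10 counts in every library and 0 passed, with a median of -0.10. Rela was at 108, 116 and 109 CPM, Chuk at 124, 73.7 and 69.3 CPM and Tbk1 at 45.6, 54.3 and 51.9 CPM. Among 15 inhibitors of the pathway, all tested, with a median of 0.17, Dusp1, a MAP kinase phosphatase, was higher in C by 1.02 (standard error 0.28, adjusted p = 0.0966). Sigirr, an inhibitory receptor of the IL-1 and Toll-like receptor family, fell by 1.29 (standard error 0.34, adjusted p = 0.0953). The inhibitor Nfkbia, itself induced by NF-kB, was abundant at 260, 345 and 322 CPM, and Tnfaip3 (A20) was at 33.4, 49.4 and 53.1 CPM. Nfkbiz, a nuclear regulator of NF-kB, was at 111, 117 and 66.5 CPM. The higher calls of Tab2, Slc46a3 and Dusp1 and the lower call of Sigirr each failed in 3 of 9 alternatives, while those of Traf6, Tab3 and Naip6 held in all 9. Where 10 counts are required in every library, Tab3 stayed in the test with exactly 10 counts in C.

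Of 20 NF-kB target genes in epithelium, 16 were tested, 1 was lower in C and 0 were higher, with a median of -0.10. Mmp7, Pigr (the transporter of IgA) and the chemokine Ccl20 were the highest per kilobase, and Ccl20 had 74.1, 66.4 and 117 CPM. Lcn2, an antibacterial protein that binds siderophores, had 185 and 305 counts and then 0 in C, at least 112-fold lower against a floor of 3 counts in C (adjusted p = 0.0152). Like Nlrp1b, it entered the test through A and B and leaves it where 10 counts are required in every library. Of the 16 tested, 6 had a log2 fold change above 0, and Il6, Csf2 and Csf3 were at 0 throughout. Of the 4 peptidoglycan recognition proteins, secreted or membrane-bound proteins that bind bacterial walls, Pglyrp1 was at 214, 255 and 320 CPM without passing the test, and Pglyrp2, Pglyrp3 and Pglyrp4 were at 0.

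**Figure D4:**
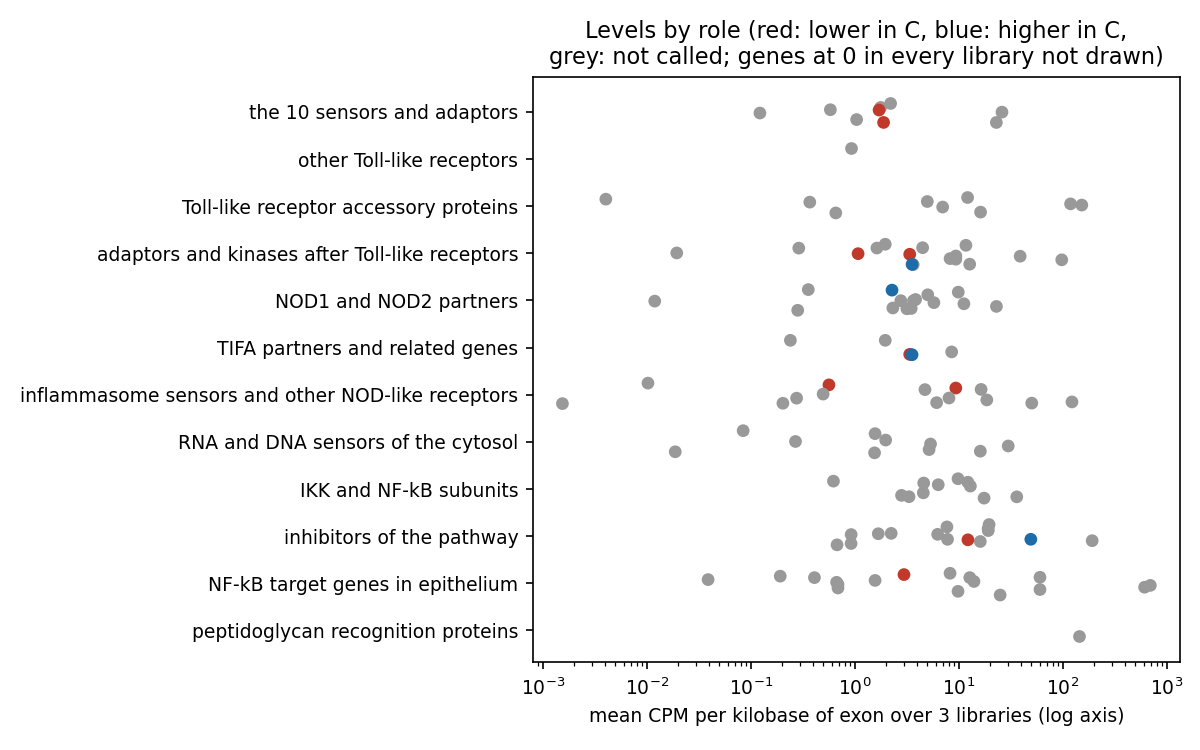
Mean level of each listed gene over the 3 libraries, in CPM per kilobase of exon on a log axis, by role; red marks genes lower in C, blue genes higher in C and grey genes not called, and genes at 0 in every library are not drawn. The 9 sensors and adaptors drawn run from 0.122 (Nod2) to 26.05 CPM per kilobase (Tifa), below Mmp7 and Pigr of the NF-kB target list at the right.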

How the data were processed

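SMART-Seq2 libraries of the sorted IEC were sequenced on an Illumina HiSeq. Reads were trimmed by the authors with Trimmomatic 0.39 and assigned to Ensembl transcripts of GRCm38.p6 with Salmon 0.14.1 (both versions also in the submitters' processing notes), and tximport gave gene sums. The deposited table holds these estimated counts in whole numbers for 3 libraries, so none was rounded, and reads of similar genes were shared out by Salmon. A and B were not copies of 1 library (chi-square per gene 69.6).

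The members and lists were chosen with earlier results of these data known. A gene of the lymphocyte and ILC3 marker list is not reported here and was left out of its sum. GENCODE M21 (GRCm38) gave positions, exon lengths and symbols, the last for 35506 of 35824 genes.

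The contrast of C with A and B used edgeR 4.0.16 in R 4.3.3 (glmQLFit, glmQLFTest) after filterByExpr, with TMM factors from the genes kept. The fit was also run on simulated counts in which C varied like A and B. That run cannot show how the test behaves if C varies more. CPM in the text use TMM factors over all genes. Standard errors were taken as the size of the log2 fold change over the square root of F. Ratios carry exact conditional binomial 95% intervals. Lists were described by counts and medians, with no set test. Genes were named by rule: all members and, per list, the 3 highest by CPM per kilobase, every gene called, and direct partners of a member (Cd14, Ly96, Tirap, Ticam1, Irak1, Irak4, Traf6, Traf2, Xiap, Tifab, Slc15a1, Nfkbia and Tnfaip3). Alpk2, Alpk3, Map3k7, and other listed genes named as being at 0, were named after their values were seen. Alternatives were DESeq2 size factors, plain totals, other filters, the Wald test of DESeq2 1.42.0, a threshold of 0.05, removal of length or GC trends by loess (span 0.5), other fold and count minimums for A and B, the longest transcript as length, and leaving out each library. Python 3.11.15 was used with scipy 1.17.1 for intervals, pandas 2.3.3 for tables and matplotlib 3.10.9 for plots.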

Additional observations from a re-analysis of the deposited data

How the results depend on the processing

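The number of genes that differed in C, 892, became 2402 with no filter on low counts (825 higher, 1577 lower), 1618 with the Wald test of DESeq2 and 276 at a threshold of 0.05, and stayed within 1.5 times of 892 with DESeq2 size factors, plain totals, removal of length or GC trends, at least 10 counts in every library, and TMM factors over all genes, a setting added after the data were seen (701). With at least 10 counts in every library the split was 344 higher and 686 lower, against 185 and 707. The number of members called was 2 in each of these fits except that with at least 10 counts in every library, where it was 1 (Alpk1), because Tlr2 with 2 counts in C left the test. Leaving out A or B leaves no residual degrees of freedom, so the fold change is a value with no test: the direction then turned for Tifa (-0.016 without A, 0.484 without B), Ripk2 (0.808 without A, -0.375 without B) and Tlr3 (0.559 without A, -0.098 without B). Ripk2 also turned with the length trend (-0.083) or the GC trend (-0.014) removed, and the cause was not tested. Without A or B, Tlr2 was at -7.07 and -6.55 and Alpk1 at -4.47 and -3.37 (log2). Without C no comparison could be made. Cd14 and Tlr1, not called in the report, passed in 1 of 8 alternatives each, Traf2 in 2 of 8 and Lbp in 3 of 7. Between A and B, 2074 of 9617 genes and 1 of 5 members were past 1.5-fold with at least 100 counts in both libraries, and 1427 of 11989 genes and 3 of 9 members were past 2-fold, against 3503 of 11989 genes and 4 of 9 members. The order of the members by CPM per kilobase kept 8 of 10 ranks with the longest transcript as length and 6 to 7 of 10 without 1 library; without C, Tlr2, Alpk1 and Ripk2 moved ahead of Nod1. Counts were lowest for Nod2 (3 to 23), Tlr5 (0) and Tlr2 in C (2), which limits what can be said of them. No paired analysis was possible because the labels give 1 group.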

Other observations

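Lbp, the lipopolysaccharide-binding protein that hands its ligand to CD14, had 27, 89 and 0 counts in A, B and C, at least 25.5-fold lower in C against a floor of 3 counts. Lbp fell just short of the threshold of 0.1 (adjusted p = 0.10009, edgeR's quasi-likelihood test) and passed in 3 of 7 alternatives. It entered the test only through A and B and leaves it where 10 counts are required in every library. The counts are therefore the firmer description. Unc93b1, the chaperone that carries endosomal Toll-like receptors, was at 18.2, 7.06 and 20.1 CPM, so B was the low library, as for Ripk2. The scavenger receptor gene Cd36, a co-receptor of TLR2, had 77, 0 and 82 counts. Of the NF-kB targets, the chemokine gene Cxcl2 had 10, 60 and 32 counts and Tnf had 146, 453 and 367, with B highest for both. These genes were picked after their values were seen, and none of them passed the test in the fit reported above.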
